A study of Mus musculus with 2 samples.

Results

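The 9 genes described here encode the ligands of the inhibitory receptor PD-1 and their neighbours in T cell costimulation: Cd274 (PD-L1), Pdcd1lg2 (PD-L2), Cd80, Cd86, Vsir (VISTA), Cd276 (B7-H3), Icosl, Cd40 and Lgals9 (galectin-9). They were taken by gene symbol from the gene list that both libraries share, and all 9 of the 9 symbols were found among its 27998 genes. Both libraries hold single immune cells sorted for CD45, the common surface protein of leukocytes, from tumours of the mouse colon adenocarcinoma line MC38-GFP, which carries green fluorescent protein. C57BL/6 mice had received 50000 tumour cells under the skin and then anti-PD-1 antibody at a dose described as sub-optimal, 100 ug at each of 4 injections given on day 12, day 15, day 18 and day 22. One library came from an animal group that the labels call responder and the other from one called non-responder, and both groups were treated, so neither library is an untreated control. The sources used here do not say how many mice a library pools. The study's subject, per its title, was the myeloid compartment of tumours under PD-1 blockade. With 1 library per group no replicate error exists, so no test was made and every interval below is a 95% interval of counting error only. Cells of 1 library are not replicates of a condition.

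PD-1 is an inhibitory receptor of activated T cells, and PD-L1 and PD-L2 are its ligands. PD-L1 is carried by many cell types and is induced by interferon-gamma, whereas PD-L2 is known mainly from dendritic cells and macrophages, where interleukin-4 and GM-CSF induce it. CD80 and CD86 give the costimulatory signal through CD28 and are bound more tightly by the inhibitory receptor CTLA-4, and CD80 can also bind PD-L1 on the same cell. ICOSL is the ligand of ICOS. VISTA and B7-H3 are inhibitory or context-dependent relatives of the B7 family. CD40, a receptor of the tumour necrosis factor family, receives the T cell signal CD40L and drives dendritic cells and macrophages to raise CD80 and CD86. Galectin-9, a sugar-binding protein that is no B7 relative, is a ligand of TIM-3 (Havcr2).

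After removal of 1 responder and 3 non-responder barcodes under 500 genes and of 49 and 12 with over 10% mitochondrial counts, 4376 responder and 2565 non-responder cells remained, with a median of 10043 and 11752 unique molecular identifiers (UMIs, counted RNA molecules) per cell. The libraries shared 14 barcode strings. Clusters were named from marker genes: 4149 responder cells (94.8%) and 2357 non-responder cells (91.9%) were macrophage-like, 21 and 83 dendritic-like, 91 and 65 T cell-like, 4 and 21 NK cell-like, 22 and 20 fibroblast-like, and 89 and 19 carried markers of both macrophages and T cells and are called mixed. Levels are given as CPM, the UMIs of a gene summed over a group of cells and scaled to the group's total. Summed macrophage markers came to 60216 CPM (responder) and 56319 CPM (non-responder) in the macrophage-like class, with 16 of 16 genes detected. Ptprc, the gene of CD45, was counted in 77.8% and 74.5% of the macrophage-like cells. It was counted in only 3 of 22 responder and 3 of 20 non-responder fibroblast-like cells, a class that a CD45 sort would remove. Cluster 1 of the macrophage-like class (941 responder and 22 non-responder cells) carried 93.8% of the macrophage markers. Its 10 leading genes against all other cells held no macrophage or monocyte marker, as in clusters 0, 2, 3, 4, 6 and 14. Of the macrophage-like clusters it alone had a dendritic marker, Xcr1, among them, beside the B cell gene Cd79b. The ratios between libraries are therefore also given without cluster 1 below. The dendritic-like class is less settled: it held 70 and 484 cells at a Leiden resolution of 0.5, 62 and 191 when clustered without the 9 genes, and 20 and 84 at resolution 2. Both wider classes carried 100% of the macrophage markers, against 75% in the main class and at resolution 2. Their leading genes also included S100a8 and the monocyte markers Chil3 and Plac8. Values from these wider classes are therefore not of dendritic-like cells alone. The 2 libraries filled different macrophage clusters, so the class stands for different cells in each, and values within clusters are given below beside those for the class.

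Cd274 and Pdcd1lg2 lie side by side on chromosome 19 of GRCm38, on the plus strand, Cd274 at 29367455 to 29388095 and Pdcd1lg2 at 29410919 to 29471161, with 22823 bases between them. Cd80 (38455561 to 38496335, plus strand) and Cd86 (36603869 to 36666081, minus strand) share chromosome 16, and Vsir (60346851 to 60372684) and Icosl (78069302 to 78083913) share the plus strand of chromosome 10. Cd40 lies on chromosome 2 at 165055627 to 165072948, Cd276 on chromosome 9 at 58524298 to 58555437 and Lgals9 on chromosome 11 at 78962974 to 78984946. The annotation places genes on the opposite strand over 4 of them: Cdh23 over Vsir, A930007I19Rik over Pdcd1lg2, and unnamed models over Cd274 and Cd276. Whether the authors' counting used strand is not given in these sources, so those 4 counts could include reads of the overlapping gene. The 250 bases before the start of both PD-1 ligands, neighbouring genes with different cell patterns below, and of Lgals9, which holds a motif, are shown from RefSeq (GRCm38.p6), at chr19:29367188-29367437 (plus strand), chr19:29410669-29410918 (plus strand) and chr11:78984925-78985174 (minus strand). Capitals mark the only motif match found.

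Cd274: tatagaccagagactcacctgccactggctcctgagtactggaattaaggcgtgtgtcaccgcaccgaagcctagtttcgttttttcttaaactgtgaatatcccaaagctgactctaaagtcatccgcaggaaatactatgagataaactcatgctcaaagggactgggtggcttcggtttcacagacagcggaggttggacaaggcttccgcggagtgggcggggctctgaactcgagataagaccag

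Pdcd1lg2: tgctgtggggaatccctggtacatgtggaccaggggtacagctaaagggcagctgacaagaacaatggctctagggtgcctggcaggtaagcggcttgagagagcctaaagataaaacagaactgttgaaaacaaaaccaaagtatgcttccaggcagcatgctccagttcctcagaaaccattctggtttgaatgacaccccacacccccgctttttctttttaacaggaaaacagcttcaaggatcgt

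Lgals9: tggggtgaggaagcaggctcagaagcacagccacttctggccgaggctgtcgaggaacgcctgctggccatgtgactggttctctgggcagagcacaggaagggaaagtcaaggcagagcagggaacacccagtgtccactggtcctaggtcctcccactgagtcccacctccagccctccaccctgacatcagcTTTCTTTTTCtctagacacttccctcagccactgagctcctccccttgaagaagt

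RefSeq promoters were matched for 7 of the 9 genes, all but Cd86 and Cd40. Both strands were searched for 3 motifs: the interferon-gamma-activated site TTCNNNGAA, the interferon regulatory factor site (GAAA, any 2 bases, GAAA) and the hypoxia site ACGTG. Of 32851 mouse promoters of the same length, 7.02% hold the interferon-gamma-activated motif, 2.98% the interferon regulatory factor motif and 16.6% the hypoxia motif. Among the 7, the sole match was the interferon regulatory factor motif of Lgals9, on the strand opposite to the gene and 55 bases before its start. A match is a description of letters and not a binding site, and no match says only that these letters are not in this window.

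Cd274 was counted in both kinds of myeloid cells and, at lower counts, in lymphocytes. Its level was 51.3 CPM (22.1 to 101) in responder dendritic-like cells and 25.4 CPM (15.5 to 39.2) in non-responder ones, against 54.7 CPM (52.5 to 56.9) and 35.8 CPM (33.7 to 38.0) in the macrophage-like cells of the same libraries. The dendritic-like to macrophage-like ratio spanned no difference in the non-responder library (log2 -0.50, -1.21 to 0.14). In T cell-like cells Cd274 was at 15.0 CPM (responder) and 20.7 CPM (non-responder). Non-responder NK cell-like cells held 29.9 CPM (12.9 to 59.0), from 8 UMIs in 5 of 21 cells. When each cell was thinned to 3000 UMIs, 15.2% of responder and 9.43% of the non-responder macrophage-like class held a Cd274 UMI (35.96% and 22.6% unthinned, at median depths of 10074 and 11945 UMIs). The same share was 1.32% and 6.15% in T cell-like cells (unthinned medians 3718 and 5031 UMIs). It was 0 of 19 and 0 of 20 in fibroblast-like cells (unthinned medians 29277 and 32118.5 UMIs), where 3 cells would be 15.8% and 15.0%. Unthinned, 4 of 22 responder (7 UMIs, 9.06 CPM) and 3 of 20 non-responder fibroblast-like cells (6 UMIs, 7.50 CPM) held Cd274. Whether these UMIs are background was not tested.

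Pdcd1lg2 stood apart from Cd274, since among the named classes its highest levels were in T cell-like cells and not in macrophage-like cells. The 11 non-responder dendritic-like cells with a Ccr7 UMI, described below, held 76.1 CPM (32.8 to 150). No order between them and lymphocytes is therefore claimed. It reached 67.5 CPM (44.5 to 98.2, 27 UMIs) in responder and 56.8 CPM (35.6 to 86.0, 22 UMIs) in non-responder T cell-like cells, against 6.24 CPM (5.52 to 7.03) and 0.986 CPM (0.660 to 1.42) in macrophage-like cells. The log2 ratios were 3.44 (2.81 to 4.01) and 5.85 (4.98 to 6.70). At 3000 UMIs it was counted in 19.7% and 16.9% of T cell-like cells, against 1.90% and 0.382% of macrophage-like cells. Non-responder NK cell-like cells held 56.1 CPM (31.4 to 92.5), from 15 UMIs in 10 of 21 cells. Among the clusters of the T cell-like class its level ranged between 39.3 and 72.9 CPM. The highest value came from only 20 cells of a non-responder cluster led by Foxp3 and Tnfrsf18, genes of regulatory T cells. Counts in clusters this small are low, so no order of the T cell-like clusters is claimed. Dendritic-like cells held 32.0 CPM (10.4 to 74.8) in the responder and 22.8 CPM (13.5 to 36.1) in the non-responder library, a log2 difference from macrophage-like cells of 2.36 (0.725 to 3.6004) and 4.53 (3.598 to 5.43). With 94.8% of the cells, the macrophage-like class carried 83.8% of the responder library's Pdcd1lg2 UMIs, while in the non-responder library they carried 33.3%, T cell-like cells 25.3%, dendritic-like cells 20.7% and NK cell-like cells 17.2%. The mixed class held 16.2 CPM in the responder and 10.1 CPM in the non-responder library. Both dendritic-like values depend on the clustering. At resolution 0.5 they were 8.41 CPM (responder) and 5.35 CPM (non-responder), against 6.35 and 0.867 CPM in macrophage-like cells, and clustered without the 9 genes 9.49 and 12.53 CPM. At resolution 2 they were 26.1 CPM (responder) and 22.6 CPM (non-responder). A930007I19Rik overlaps Pdcd1lg2 on the other strand, and its part in these counts was not tested.

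**Figure D1:**
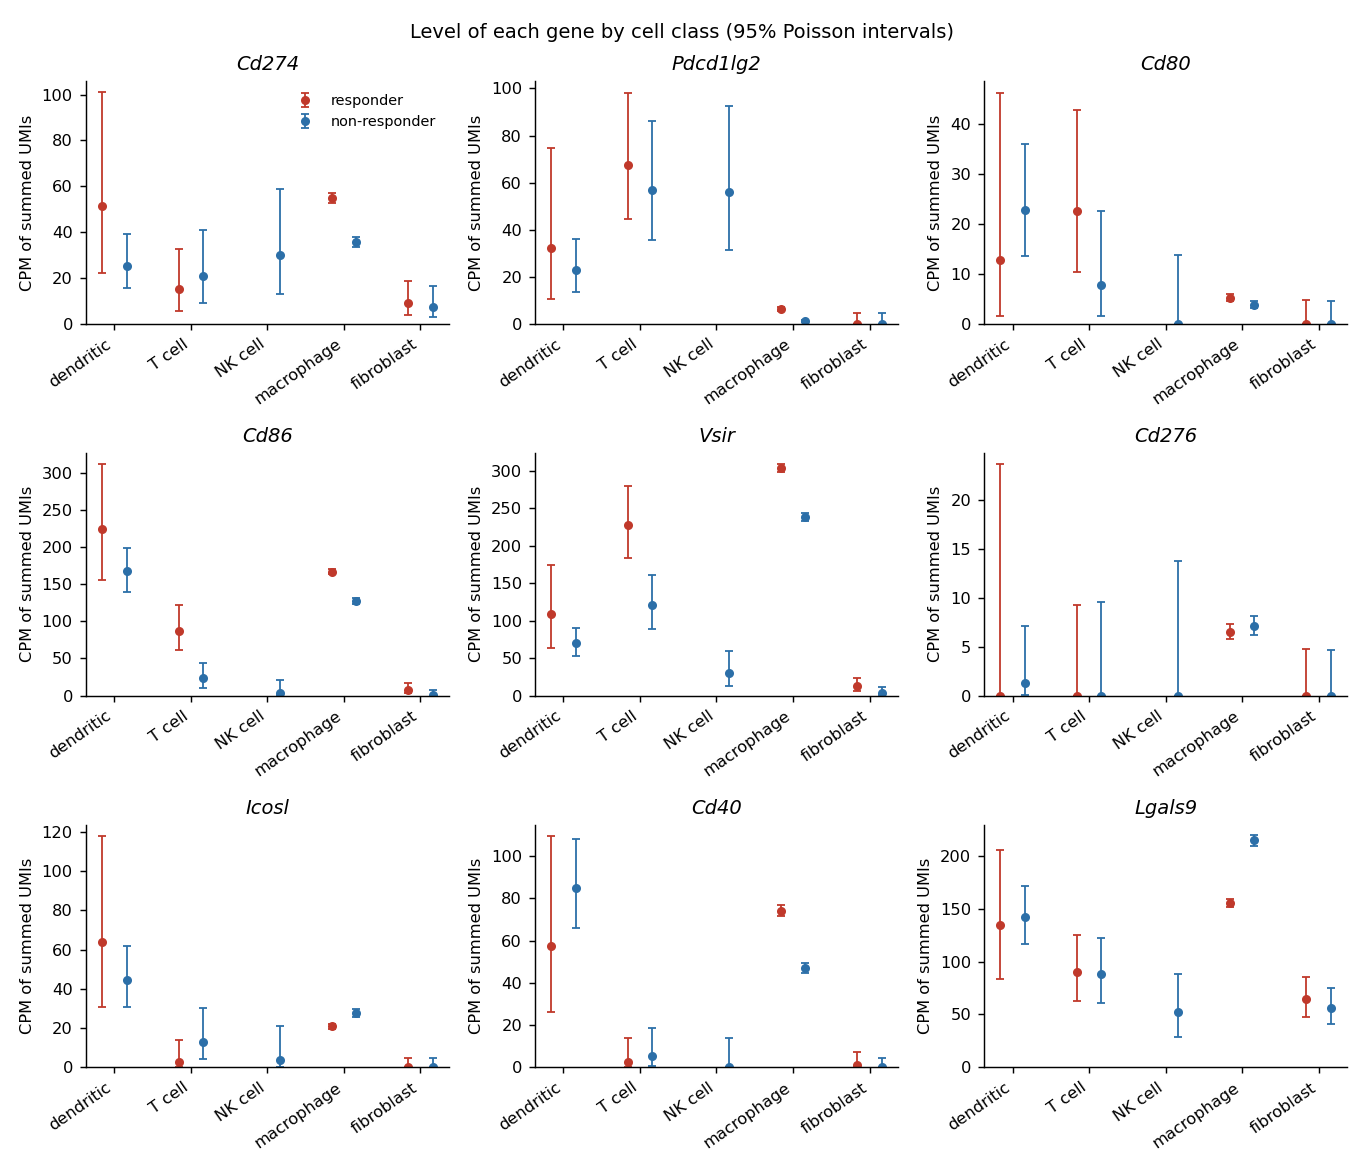
Level of each gene (CPM of summed UMIs, linear axis, a scale for each gene) in each named cell class, with responder and non-responder points side by side and bars for the 95% counting interval. The 4 responder NK cell-like cells are left out. Pdcd1lg2 sits at 67.5 and 56.8 CPM in T cell-like cells against 6.24 and 0.986 CPM in macrophage-like cells, while Cd40 and Cd86 sit higher in macrophage-like than in T cell-like cells.

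The CD28 ligands differed from each other in both level and place. Cd86 was a general myeloid gene, at 224 CPM in responder and 167 CPM in non-responder dendritic-like cells, against 167 and 128 CPM in macrophage-like cells. At 3000 UMIs, 37.8% of responder macrophage-like cells and 30.9% of non-responder ones held a Cd86 UMI. T cell-like cells held 87.5 CPM (responder) and 23.2 CPM (non-responder) of Cd86, and their summed macrophage markers were likewise 3281 and 1841 CPM, whose part in the Cd86 values was not tested. Cd80 was scarce in macrophage-like cells, at 5.24 and 3.81 CPM. It was 22.8 CPM in non-responder dendritic-like cells, a log2 ratio over macrophage-like cells of 2.58 (1.78 to 3.31), and 12.8 CPM in responder ones, where the interval spanned 0 (1.29, -1.77 to 3.16). The non-responder dendritic-like level was 8.23 CPM at resolution 0.5, against 3.55 CPM in macrophage-like cells, and 22.6 CPM against 3.81 CPM at resolution 2. T cell-like cells held 22.5 CPM of Cd80 in the responder library, from 9 UMIs, and 7.75 CPM in the non-responder library, from 3 UMIs.

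Icosl was higher in the dendritic-like class as clustered here: 64.1 CPM (30.7 to 118) against 20.8 CPM in the responder library and 44.4 CPM (30.9 to 61.7) against 27.6 CPM in the non-responder library. The log2 ratios were 1.62 (0.56 to 2.51) and 0.69 (0.15 to 1.17). The dendritic-like level was 31.5 CPM in each library at resolution 0.5, and clustered without the 9 genes it was 33.2 CPM against 20.9 CPM (responder) and 26.8 CPM against 28.1 CPM (non-responder), so the non-responder direction turned there. At resolution 2 the Icosl level was 65.2 against 20.8 CPM (responder) and 43.9 against 27.6 CPM (non-responder). Vsir, the most abundant of the 9 genes in macrophage-like cells, was lower in that dendritic-like class. Dendritic-like cells held 109 CPM (responder) and 69.8 CPM (non-responder), against 303 and 239 CPM in macrophage-like cells, log2 ratios of -1.48 (-2.26 to -0.80) and -1.77 (-2.18 to -1.39). In the wider dendritic-like class of resolution 0.5, which carried 100% of the macrophage markers, the difference was nearly gone in the responder library (292 against 302 CPM) and turned in the non-responder library (247 against 232 CPM). At resolution 2 it stayed, at 111 against 303 CPM (responder) and 68.9 against 239 CPM (non-responder). Vsir was also at 228 and 121 CPM in T cell-like cells. Any part of the macrophage marker RNA given above in these values was not tested. Because the 3′ assay counts one end of each RNA molecule, levels of different genes are set side by side without division by length.

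Cd40 was a myeloid gene, with 1 UMI in responder and 2 UMIs in non-responder T cell-like cells (2.501 and 5.16 CPM). It stood at 57.7 CPM in responder and 85.0 CPM in non-responder dendritic-like cells, against 74.1 and 47.1 CPM in macrophage-like cells. The dendritic-like to macrophage-like log2 ratio was thus 0.85 (0.48 to 1.21) in the non-responder library and -0.36 (-1.49 to 0.56) in the responder library, and both turned at resolution 0.5, where dendritic-like cells held 90.4 CPM (responder) and 43.6 CPM (non-responder), against 73.7 and 48.9 CPM in macrophage-like cells. At resolution 2 neither turned, at 58.7 against 74.1 CPM (responder) and 95.2 against 46.8 CPM (non-responder). Lgals9 was the most widely spread: 135 CPM in responder and 142 CPM in non-responder dendritic-like cells, 90.0 and 87.8 CPM in T cell-like cells and 64.7 and 56.2 CPM in fibroblast-like cells, against 155 and 214 CPM in macrophage-like cells. Cd276 was rare everywhere, at 6.52 and 7.14 CPM in macrophage-like cells. No Cd276 UMI was found in T cell-like cells of either library, where 3 UMIs would be 7.50 CPM (responder) and 7.75 CPM (non-responder), so the T cell-like level is not separated from the macrophage-like one.

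Within the non-responder dendritic-like cells, Ccr7, the homing receptor of migratory mature dendritic cells, marked those with PD-1 ligands and Cd80. The 11 cells with a Ccr7 UMI held 95.1 CPM of Cd274 (45.6 to 175, 10 UMIs), against 14.6 CPM (7.02 to 26.9, also 10 UMIs) in the 72 cells without. Pdcd1lg2 and Cd80 were each at 76.1 CPM from 8 UMIs in the Ccr7-positive cells, against 14.6 CPM in the others. Cd86 was 257 CPM (169 to 373) against 154 CPM (126 to 186). Cd40 was 114 CPM (58.9 to 199) against 80.5 CPM (60.6 to 105). Both pairs of intervals overlapped. Lgals9 was lower, at 57.0 CPM (20.9 to 124, 6 UMIs) in Ccr7-positive and 155 CPM (127 to 188) in Ccr7-negative cells. Vsir (2 UMIs, 19.0 CPM, 2.30 to 68.7, against 77.6 CPM, 58.1 to 101) and Icosl (1 UMI, 9.51 CPM, 0.241 to 52.97, against 49.8 CPM, 34.5 to 69.5) also had intervals that overlapped. Overlap of separate intervals does not settle an order. No ratio was taken in this split, so no order is stated for Cd86, Cd40, Vsir or Icosl. The division was the same for 2 further genes, chosen after their values were seen: the chemokine Ccl22 was at 1911 against 92.2 CPM and the actin-bundling gene Fscn1 at 742 against 2.93 CPM. Other dendritic markers did not follow it. Cd209a went the other way, at 9.51 CPM (0.241 to 52.97) against 214 CPM (180 to 251). Xcr1 (0 against 30.7 CPM), Flt3 (66.5 against 41.0 CPM) and Clec9a (0 against 1.46 CPM) had intervals that overlapped. The median depth was 7558 UMIs with and 9081 UMIs without Ccr7. The responder library had 2 Ccr7-positive dendritic-like cells, too few for values of their own, and 5 of 14 dendritic markers (Zbtb46, Fscn1, Xcr1, Cacnb3 and Il4i1) were at 0 in its 21 cells.

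Macrophage-like cells fell into 11 clusters, and the 9 genes did not share a common high cluster. Cd274, Pdcd1lg2, Cd80 and Cd40 were among the 2000 variable genes used for clustering, so levels by cluster are a description. Cd274 was highest in cluster 14, led by Mmp12, Hmox1, Adm, Gpnmb and Hilpda, which includes genes of haem, metal and low-oxygen responses. That cluster held 139.9 CPM (98.0 to 194) from 30 responder cells and 151 CPM (139 to 163) from 388 non-responder cells. In the non-responder library it contained 16.5% of the macrophage-like cells and 58.7% of their Cd274 UMIs, and in the responder library 1.53% of the Cd274 UMIs. The same non-responder cells had little Cxcl9, 30.8 CPM against 64.6 CPM in the other macrophage-like cells, and 101 against 689 CPM in the responder library. They were also lower in Icosl (10.99 against 30.3 CPM) and Cd276 (0.977 against 8.14 CPM) and higher in Cd86 (190.1 against 118 CPM). The other non-responder macrophage clusters were at 8.66 to 60.2 CPM of Cd274, with the large Fcrls, Pf4 and Folr2 cluster (11) at 16.8 CPM and the dividing Pbk and Mki67 cluster (2) at 10.03 CPM.

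The responder library spread Cd274 over more clusters. After the Mmp12-led cells, cluster 7, led by Ly6i, Ifitm1 and the monocyte gene Ly6c2, came next, at 97.2 CPM (88.8 to 106), then cluster 6, led by the interferon-induced genes Cxcl10, Oasl1 and Ifit3, at 65.0 CPM, with a range over 8 clusters of 25.8 to 139.9 CPM and a median of 48.2 CPM. The Ly6i-led cluster was also the responder maximum of Pdcd1lg2 (17.6 CPM), Cd80 (16.4 CPM) and Cd86 (245 CPM). With 12.0% of the responder macrophage-like UMIs, it held 33.8% of their Pdcd1lg2 UMIs and 37.6% of their Cd80 UMIs. Among non-responder cells cluster 12, led by Retnla, S100a8 and Chil3, was highest in Pdcd1lg2 (6.86 CPM, 9 UMIs) and Cd80 (28.2 CPM, 37 UMIs). These were 31.0% and 33.0% of the class's UMIs in 4.46% of its total. Non-responder Cd86 was highest in the Ly6i-led cluster (269 CPM, 23 cells) and was 126 CPM in cluster 12. Cd40 was highest in the Cxcl10-led cluster of the responder library (142 CPM) and in the Ly6i-led cluster of the non-responder library (165 CPM, 23 cells). By highest over lowest cluster Vsir varied least, between 223 and 364 CPM over responder clusters and between 143 and 275 CPM over non-responder clusters. Lgals9 was highest in the responder Cxcl10-led cluster (217 CPM) and lowest in the Mmp12-led cluster (120.5 CPM responder, 148 CPM non-responder).

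**Figure D2:**
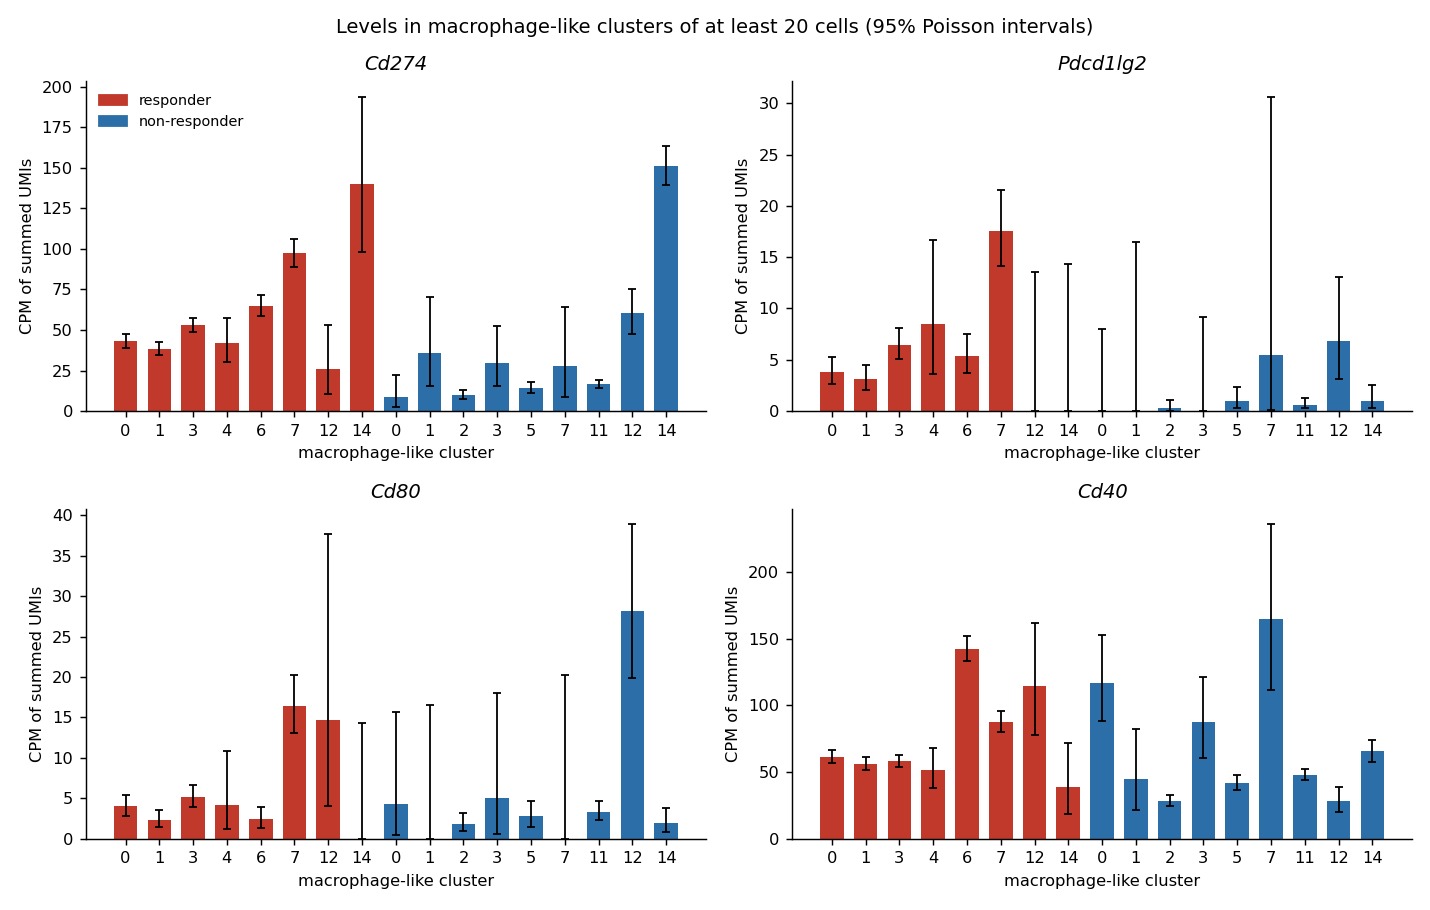
Level (CPM of summed UMIs, bars from 0, with 95% counting intervals) of Cd274, Pdcd1lg2, Cd80 and Cd40 in every macrophage-like cluster with at least 20 cells, numbered as in the text, responder clusters left of non-responder ones. Cd274 peaks at 139.9 CPM (responder) and 151 CPM (non-responder) in cluster 14, whereas Pdcd1lg2 and Cd80 peak in responder cluster 7 and non-responder cluster 12.

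Between the libraries, 3 of the 9 genes were at least 1.5-fold higher in responder macrophage-like cells and 0 were at least 1.5-fold lower, against 8.05% higher and 11.4% lower among the 10856 genes of at least 50 UMIs. The 3 were the PD-1 ligands and Cd40. Pdcd1lg2 was 6.33-fold higher (269 responder and 29 non-responder UMIs, log2 2.66, 2.11 to 3.27), Cd40 1.58-fold (0.66, 0.56 to 0.75) and Cd274 1.53-fold (0.61, 0.51 to 0.72). Cd40 and Cd274 lie close to the 1.5-fold limit. Cd80 (log2 0.46, 0.13 to 0.80), Cd86 (0.39, 0.33 to 0.45) and Vsir (0.35, 0.30 to 0.39) were higher by less than that. Lgals9 (-0.47, -0.52 to -0.42) and Icosl (-0.41) were lower, and the interval of Cd276 spanned 0 (-0.13, -0.39 to 0.13). The shares at 3000 UMIs went the same way, at 17.9% responder and 11.8% non-responder for Cd40, 58.3% and 49.5% for Vsir, 5.71% and 7.47% for Icosl and 35.4% and 45.6% for Lgals9. At a 2-fold limit 1 gene was higher (3.45% of all genes) and 0 were lower (4.4%), and at a limit of 25% above 1, 6 were higher (16.4%) and 2 lower (26%). Without cluster 1, named above, the log2 ratios were 0.72 for Cd274, 2.83 for Pdcd1lg2, 0.74 for Cd40, 0.64 for Cd80, which is then past 1.5-fold, and 0.29 for Vsir. Scaling by TMM factors in place of total UMIs shifts every log2 ratio by 0.0869.

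The ratios for the class were set beside those within the 6 macrophage clusters with at least 20 cells of each library. Vsir was higher in the responder part of 6 of 6 clusters with every interval above 0, by log2 0.38 to 1.06, for example 298 against 143 CPM in the Ly6i-led cluster and 264 against 203 CPM in the Mmp12-led one. Of 10210 genes, 3.44% were higher in every shared cluster and 0.304% had every interval above 0. Lgals9 was lower in 5 of 6, which 11.7% of genes matched or exceeded, and by most in the Ly6i-led cluster (126 against 313 CPM). Cd40 did not keep its direction: it was higher in 2 of 6, by most in the Retnla-led cluster (114 against 28.2 CPM), and lower with intervals below 0 in 3, at 87.5 against 165 CPM in the Ly6i-led cluster, 58.5 against 87.2 CPM in cluster 3 (led by Cox4i2 and Mmp13) and 61.5 against 117 CPM in cluster 0 (dividing, led by H2afx and Top2a). With the clusters weighted equally the log2 ratio of Cd40 was -0.285, and that of Cd86 was -0.02. Cd274 was higher in 4 of 6, by most in cluster 0 (43.2 against 8.66 CPM) and the Ly6i-led cluster (97.2 against 27.5 CPM), and lower in the Retnla-led cluster (25.8 against 60.2 CPM). The share of all genes was not taken for the cluster counts of Cd40 and Cd274. Those counts are therefore not read as particular to these genes. Without the Mmp12-led cluster, Cd274 was 54.1 CPM in responder and 17.2 CPM in non-responder macrophage-like cells, which moves its log2 ratio to 1.66 (1.51 to 1.81), and with clusters weighted equally that ratio was 0.34. Pdcd1lg2 gave a ratio in 1 shared cluster, the Ly6i-led one, at 17.6 CPM (91 UMIs) against 5.50 CPM (1 UMI), and its equally weighted log2 ratio was 1.21. Without the 386 responder and 72 non-responder macrophage-like cells that held T cell receptor-complex or Cd8 RNA it was 2.89. In each shared cluster one library holds few cells, between 22 and 42 in the smaller part.

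**Figure D3:**
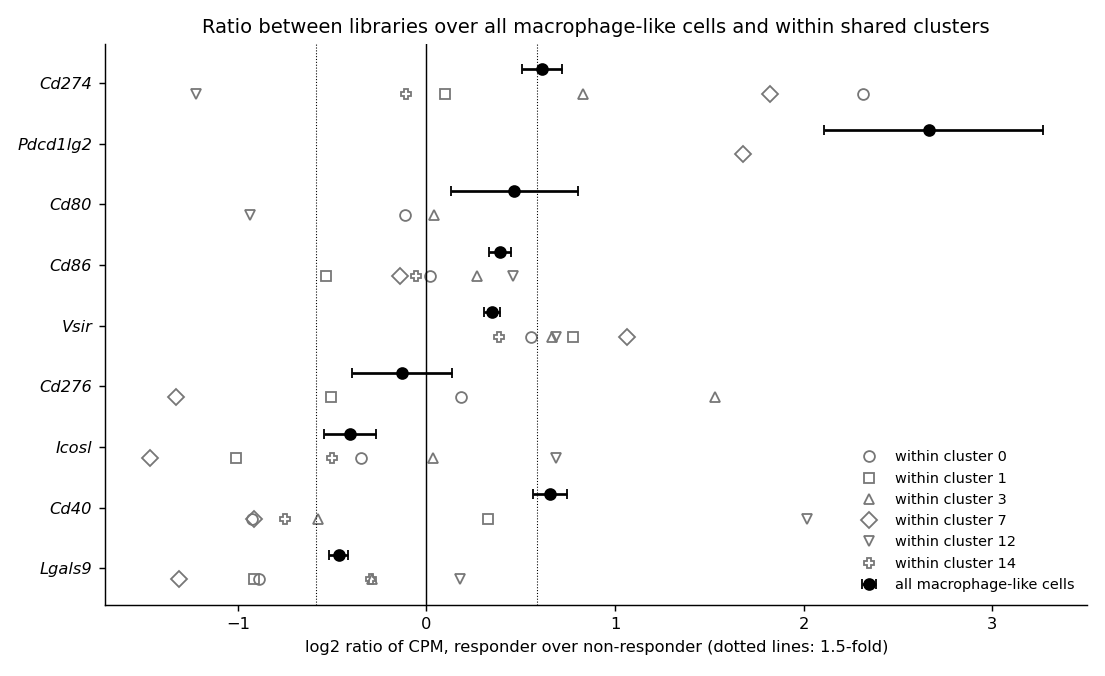
Log2 ratio of responder over non-responder level for each gene, for the whole macrophage-like class with its 95% counting interval and for each cluster found in both libraries that gave a ratio (open symbols, drawn without intervals). Vsir lies above 0 in 6 of 6 clusters, while Cd40 lies above 0 for the class (0.66) and above 0 in only 2 of 6 clusters.

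Cxcl9, a chemokine that interferon-gamma induces and that attracts CXCR3-bearing T cells, was at 685 CPM in responder and 59.9 CPM in non-responder macrophage-like cells. At 3000 UMIs, 2303 of 4062 responder cells (56.7%) and 156 of 2355 non-responder cells (6.62%) held a Cxcl9 UMI. The 9 genes differed only modestly between Cxcl9-positive and Cxcl9-negative cells of a library: 0 of 9 were at least 1.5-fold higher in the responder library (2.08% of 8159 genes were) and 1 of the 8 that gave a ratio, Cd40, in the non-responder library (8.05% of 7004 genes). Pdcd1lg2 gave none there, with 0 UMIs in Cxcl9-positive and 11 in Cxcl9-negative cells. At least 1.5-fold lower were 0 of 9 in the responder and 0 of 8 in the non-responder library, against 2.26% and 16.3% of genes. At a limit of 25% above 1, 3 were higher in each library (8.8% of responder and 18.6% of non-responder genes), and at 2-fold 0 were (0.221% and 1.68%). In the responder library Cd274 was 65.0 CPM in Cxcl9-positive and 51.4 CPM in Cxcl9-negative cells (log2 0.34, 0.12 to 0.56), and Cd40 was 83.1 against 63.7 CPM (0.38, 0.19 to 0.58). With clusters weighted equally these log2 ratios were 0.11 for Cd274 and 0.16 for Cd40. Vsir was lower, at 305 against 331 CPM (-0.12, -0.21 to -0.03). The intervals of the other 6 genes spanned 0, with Pdcd1lg2 at 7.09 against 6.06 CPM, Cd86 at 175 against 163 CPM and Lgals9 at 152 against 155 CPM. In the non-responder library Cd40 was 79.1 against 44.9 CPM (0.82, 0.28 to 1.31) and Cd86 197 against 135 CPM (0.54, 0.22 to 0.85), and Cd274 was 51.3 against 40.9 CPM with an interval that spanned 0 (0.33, -0.34 to 0.93).

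Both responder differences were graded with the Cxcl9 count. From cells with no Cxcl9 UMI through those with 1, 2, 3 to 5 and 6 or more, Cd274 was 51.4, 59.0, 61.1, 65.7 and 76.9 CPM, and Cd40 was 63.7, 67.6, 77.1, 86.3 and 108 CPM. Vsir was 331, 328, 334, 288 and 268 CPM over the same bins. Cd86, whose interval in the split spanned 0, was 163, 157, 172, 175 and 204 CPM. Its intervals in the lowest (152 to 174) and highest bin (180 to 229) did not overlap. Within the 6 responder clusters with enough cells on both sides, Cd40 was higher in the Cxcl9-positive cells of 5 (8.67% of 8093 genes were in at least 5), with 1 interval above 0. Cd274 was higher in 4 (26.4% of genes were in at least 4), with 2 intervals above 0, and Vsir was lower in 6 (2.05% of genes), with 0 intervals below 0. Cd276 was higher in 5 of the 5 that gave a ratio (8.67% of genes were higher in at least 5 of 6), also with 0 intervals above 0. These ratios rest on few UMIs, from 7 against 3 at the lowest (log2 0.04) to 16 against 3 at the highest (1.60). No rise of Cd276 is claimed. In the 3 such non-responder clusters Cd40 was higher in 3 (10.3% of 5944 genes), with 0 intervals above 0. Cd274 and Cxcl9 were found together in 384 responder cells, against 349.8 expected from their separate shares, and only 16.7% of Cxcl9-positive cells held a Cd274 UMI. Among Cxcl9-positive cells alone, Cd40 was 83.1 CPM in the responder and 79.1 CPM in the non-responder library (log2 0.07, -0.41 to 0.59). Vsir was 305 against 235 CPM (0.38, 0.10 to 0.67) and Lgals9 152 against 239 CPM (-0.66, -0.94 to -0.36) in the same cells. Among Cxcl9-negative cells Cd40 was 63.7 against 44.9 CPM (0.50, 0.28 to 0.74), Cd274 51.4 against 40.9 CPM (0.33, 0.08 to 0.58) and Pdcd1lg2 6.06 against 1.67 CPM (1.86, 0.84 to 3.00).

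**Figure D4:**
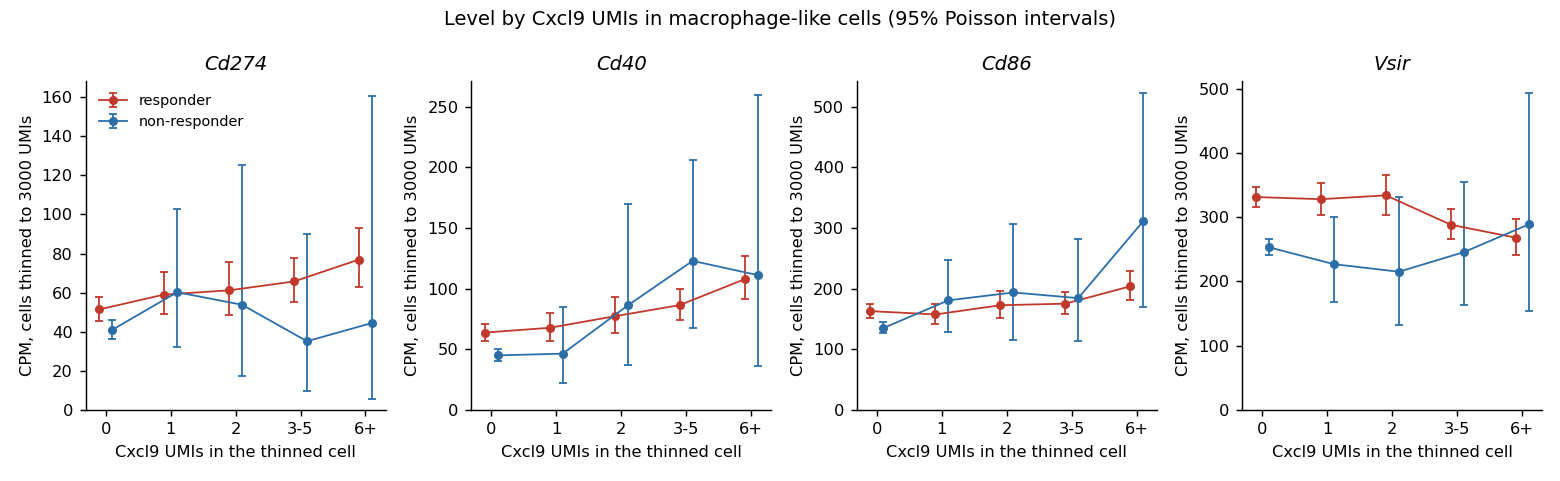
Level (CPM in macrophage-like cells thinned to 3000 UMIs) of Cd274, Cd40, Cd86 and Vsir by the number of Cxcl9 UMIs in the cell, for each library, with 95% counting intervals. In the responder library Cd274 runs between 51.4 and 76.9 CPM and Cd40 between 63.7 and 108 CPM from the lowest to the highest bin, and Vsir between 331 and 268 CPM. Responder Cd86 is at 163 CPM in the lowest and 204 CPM in the highest bin.

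Nos2, the inducible nitric oxide synthase of inflammatory macrophages, gave a higher Cd274 ratio than Cxcl9 in both libraries, with intervals that did not overlap those of the Cxcl9 split. In the responder library the 175 Nos2-positive cells held 145 CPM of Cd274, against 55.2 CPM in 3887 Nos2-negative cells (log2 1.39, 1.03 to 1.73). Non-responder values were 153 CPM in 50 Nos2-positive cells against 39.2 CPM in the others (1.97, 1.29 to 2.58). Among macrophage-like clusters Nos2 was itself highest in the Cd274-high cluster 14, at 73.8 CPM (responder) and 39.6 CPM (non-responder). Responder cluster 7, second in Cd274, came next in that library at 48.9 CPM. The Nos2 split was not made within clusters, so it is not separated from cluster membership. Of the genes that gave a ratio, 4 of 9 in the responder and 3 of 7 in the non-responder library were at least 1.5-fold higher in Nos2-positive cells (10.8% and 14.6% of all genes), and 0 and 1 were lower (17.6% and 28.2%). Cd40 was 147 against 71.4 CPM (responder) and 93.3 against 46.1 CPM (non-responder), responder Cd80 was 20.95 against 6.35 CPM, and non-responder Lgals9 was 133 against 219.96 CPM. Split by both genes, responder Cd274 was 161 CPM in 114 Cxcl9-positive Nos2-positive cells, 115 CPM in 61 Cxcl9-negative Nos2-positive cells, 60.0 CPM in Cxcl9-positive Nos2-negative cells and 49.1 CPM in cells with neither. The Cxcl9 difference in Cd274 thus held without Nos2-positive cells (log2 0.29, 0.06 to 0.52).

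Other state markers divided members as well. Ly6c2, a monocyte surface gene, marked Cd80: 17.9 against 5.62 CPM in Ly6c2-positive and Ly6c2-negative cells of the responder library (log2 1.67, 0.92 to 2.37) and 20.2 against 3.96 CPM in the non-responder library (2.35, 1.14 to 3.45). Cd80 was not alone in the responder library, where 4 of 9 genes were at least 1.5-fold higher and 1 lower (6.56% and 13.3% of all genes). In the non-responder library 1 was higher and 0 lower (11.4% and 18.7%). Spp1, the osteopontin gene, marked cells low in Icosl, at 12.0 against 20.8 CPM (responder) and 19.6 against 36.2 CPM (non-responder). Non-responder Cd274 was low in dividing Mki67-positive cells (11.4 against 43.6 CPM) and in cells with the mannose receptor gene Mrc1 (19.8 against 45.5 CPM), and higher in cells with the arginase gene Arg1 (55.1 against 33.1 CPM). These splits compare cells inside 1 library and each rests on whether a marker was counted.

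**Figure D5:**
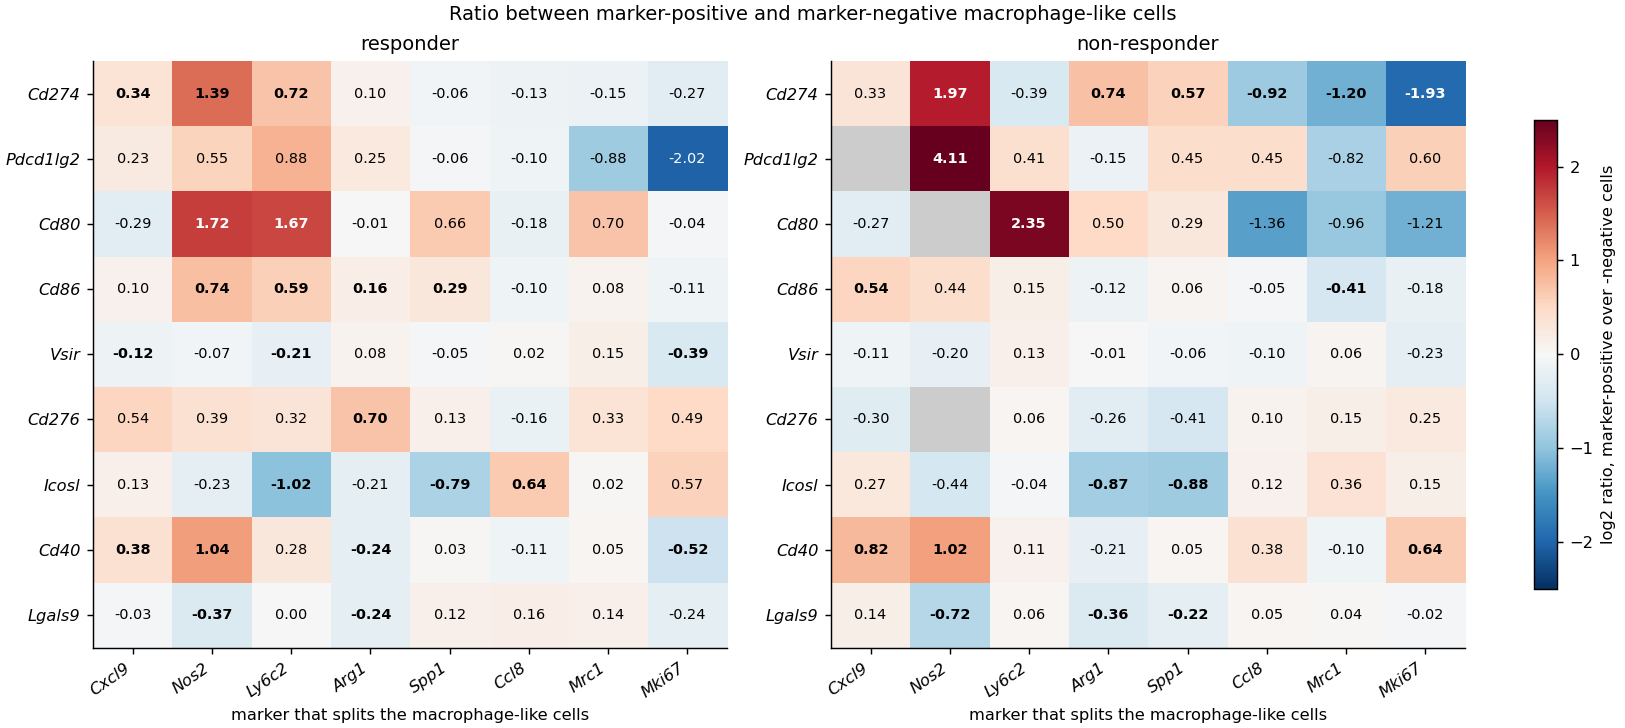
Log2 ratio of each gene's level in macrophage-like cells with over those without a UMI of each state marker, at 3000 UMIs per cell, for the responder library and the non-responder library. Bold values have a counting interval that excludes 0 and grey cells have no ratio, and Nos2 gives the highest Cd274 ratio of the markers in both libraries (1.39 and 1.97).

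Co-detection was examined for the 36 pairs of the 9 genes in macrophage-like cells at 3000 UMIs. Of the pairs with at least 10 cells expected by chance, 16 of 30 responder and 13 of 21 non-responder pairs had an odds ratio above 1, with medians of 1.06 and 1.09, so the median pair was found together about as often as separate shares give. Cd274 went with Pdcd1lg2 in the responder library, in 26 cells against 11.7 expected (odds ratio 2.93), while the non-responder library held too few Pdcd1lg2-positive cells for the comparison. Cd80 went with Cd86 in both, in 45 cells against 31.0 expected (responder, odds ratio 2.03) and 17 against 10.8 (non-responder, 2.14). Cd274 went with Cd40 in 149 cells against 110.4 expected (1.58) and 39 against 26.3 (1.68), and with Cd86 with odds ratios of 1.27 and 1.81. Vsir and Cd40 were found together less often than expected in both, in 383 cells against 424 (0.755) and 119 against 138 (0.731). Cd274 and Icosl had odds ratios of 0.854 (responder) and 0.497 (non-responder). A thinned macrophage-like cell held 1.76 (responder) and 1.59 (non-responder) of the 9 genes on average, and 23.2% and 17.9% of cells held at least 3. These odds ratios describe cells of 1 library that also share clusters.

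The receptors were followed in the T cell-like cells, 91 responder and 65 non-responder. Of 8 receptor or ligand-partner genes, 6 were measured there and 6 of 6 were at least 1.5-fold higher in the responder library, against 17.8% higher and 7.79% lower among the 1849 genes measured in that class. Pdcd1, the gene of PD-1, was at 978 CPM in responder and 362 CPM in non-responder T cell-like cells (log2 1.44, 1.15 to 1.72). Ctla4 was 600.2 against 139 CPM, Icos 613 against 142 CPM, Cd28 398 against 235 CPM and Cd44, a galectin-9 partner, 158 against 98.1 CPM. Havcr2, the gene of TIM-3, was 318 against 28.4 CPM (3.48, 2.60 to 4.52) and was also present in macrophage-like cells at 69.0 and 51.8 CPM. Cd40lg, the ligand of CD40, was at 0 UMIs in the T cell-like cells of both libraries. The responder T cell-like class is largely 1 cluster of 62 cells that the non-responder library lacks, so the classes differ in makeup.

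Genes known to act upstream of these ligands were compared between the macrophage-like cells of the libraries as lists. Of 10 measured genes of the interferon-gamma axis upstream of PD-L1, 5 were at least 1.5-fold higher in the responder library and 0 lower, with a median log2 of 0.55. Over all 10856 genes 8.05% were higher and 11.4% lower, with a median of -0.0893, and the counts of the lists that follow are read against the same shares. The transcription factor Irf1 (169 against 51.7 CPM) and the feedback inhibitors Socs1 (4.20 against 0.884 CPM) and Socs3 (295 against 115 CPM) were among them, and the receptor gene Ifngr1 was not (148 against 178 CPM). Of 14 NF-kB and CD40 signalling genes, 0 were past 1.5-fold either way (median 0.16). Of 6 genes of the interleukin-4 and GM-CSF axis known for PD-L2, 0 were higher and 1, Il13ra1, was lower (25.0 against 39.1 CPM), with a median of 0.07. Of 5 genes of PD-L1 protein stability 0 passed either way, with Cmtm6, which protects PD-L1 from degradation, at 45.7 against 60.6 CPM. Of 12 other costimulatory or adhesion ligands 3 were higher, Tnfsf13b (the gene of BAFF, 149.8 against 72.8 CPM), Cd47 (204 against 134 CPM) and Tnfrsf14 (1.51 against 0.612 CPM), and Tnfsf12 was lower (16.7 against 26.5 CPM).

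The genes most alike to each member were sought over 27 library-by-cluster units of at least 20 cells, among 7295 genes of at least 500 UMIs, by Pearson's r of log2(CPM + 1). The units share libraries, depth and clusters, so r is only a description. Cd274 was most like Mmp13 (0.739), a matrix metalloproteinase, and Pfkfb3 (0.710), a regulator of glycolysis. Pdcd1lg2 followed Tnfrsf18 (0.909), Supt4a (0.878) and Ltb (0.874). Cd86 followed Bcl2a1a (0.942) and Gngt2 (0.925), Vsir Il10rb (0.924) and Ms4a6b (0.921), Cd40 Ms4a6c (0.94995), Icosl Necap2 (0.872), Cd276 F11r (0.871), Lgals9 Hmox2 (0.917) and Cd80 Agpat4 (0.802). Over the 17 macrophage-like units alone, Cd274 was most like Sgk1 (0.865) and Mmp13 (0.843) and Cd40 was most like Gm4955 (0.916), then Isg15 (0.869) and Slfn8 (0.863). Across these units Cd274 ran against Icosl (r = -0.74) and Lgals9 (-0.65), and Icosl ran with Cd276 (0.77) and Lgals9 (0.72).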

How the data were processed

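Deposited files were matrices of raw UMI counts per gene and cell, 1 per library, made by the authors (the submitters' processing notes list Cell Ranger 1.1.0 and mm10) from CD45-sorted cells with a droplet 3′ kit per the labels' protocols. The matrices totalled 45866561 (responder) and 32032569 (non-responder) UMIs over 4425 and 2580 barcodes. No other tables of per-sample columns were present (0 left unused). From these counts, cells with at least 500 genes and at most 10% mitochondrial counts and genes in at least 3 cells were kept, scaled to 10000, reduced to 2000 variable genes and 30 components, and clustered (scanpy 1.11.5, 15 neighbours, Leiden resolution 1, igraph 0.11.9, Python 3.11.15), and T and NK clusters were clustered again. A marker counted for a cluster at 50 CPM and 10% of cells, and a class needed 50% of T or NK markers, 75% of macrophage markers, or 3 of the 10 leading genes for dendritic-like and fibroblast-like cells, so names are rebuilt here. The doublet caller, set to 5%, marked 2 of 7005 barcodes, so it did not work and doublets were not removed.

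Levels (CPM) are UMIs summed over a group of cells and scaled to its total, with exact Poisson 95% intervals, shares have Clopper-Pearson 95% intervals, and log2 ratios have conditional exact binomial 95% intervals (scipy 1.17.1). UMIs of 1 cell are not independent of each other, so these cover counting error only, and a count of 0 allows up to 3 UMIs. Shares and marker splits use each cell thinned to 3000 UMIs, which left out 87 responder and 2 non-responder macrophage-like cells. Size was judged at 1.5-fold over genes of at least 50 UMIs. TMM factors came from edgeR 4.0.16 and served no test, and the methods were tested on simulated data. Positions are from GENCODE M21 (GRCm38), in which 27645 identifiers were found. The genes named are the 9 members, partner genes past 1.5-fold, the genes with the highest r for each member, and state markers. A gene of the interferon-gamma list is not reported here. The members and all gene lists were chosen with earlier results of these data known. Alternatives tried were the thinning depth and seed, resolution, fold limit, UMI minimum, Cxcl9 minimum, TMM scaling, equal cluster weights, and leaving out dividing clusters, cells with T cell RNA, cells of the highest doublet scores or UMI counts, the Cd274-high cluster or Nos2-positive cells. The thinning seeds, the last pair, the split of dendritic-like cells by Ccr7, the Cxcl9 splits within clusters, library ratios within a Cxcl9 state and likeness over macrophage-like units were chosen after seeing the data.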

Additional observations from a re-analysis of the deposited data

Results flagged for a closer look

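Cd40 went opposite ways in dividing macrophage-like cells of the libraries. In the responder library it was 52.7 CPM in 196 cells with a UMI of Mki67, a proliferation gene, and 75.8 CPM in 3866 cells without (log2 -0.52, -1.09 to -0.01 by counting error). In the non-responder library it was 70.8 CPM in 146 Mki67-positive cells and 45.6 CPM in 2209 Mki67-negative cells (log2 0.64, 0.05 to 1.17). With 1 library on each side the difference between these ratios was not tested, and both intervals end near 0.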

How the results depend on the processing

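No paired analysis was possible because each group has 1 library, and no replicate could be left out for the same reason. Of 26 log2 ratios recomputed in 457 settings-by-result values, 28 fell outside the main counting interval, and 14 ratios kept their sign in every setting run. Of those past 1.5-fold, 1 turned: Cd40, responder over non-responder, became -0.285 with clusters weighted equally, and the cause was not tested. Cd86 became -0.02 there. Over all settings the Cd40 ratio ran between -0.28 and 0.75, that of Cd274 between 0.34 (equal weights) and 1.66 (without the Mmp12-led cluster), Pdcd1lg2 between 1.21 (equal weights) and 2.89, Vsir between 0.29 and 0.69 and Lgals9 between -0.62 and -0.38. The number of genes at least 1.5-fold higher in responder macrophage-like cells was 3, and 6 at a limit of 25% above 1 and 1 at 2-fold. The number lower was 0, and 1 (Lgals9) with equal weights and 2 at a limit of 25% above 1. Genes higher in responder Cxcl9-positive cells numbered 0, and 1 with thinning seeds 2, 4 and 5, without dividing clusters and with equal weights, and 3 at a limit of 25% above 1. In the non-responder library the number was 1. It became 2 when thinned to 2000 UMIs, with seed 5 and without the Cd274-high cluster, 3 with seed 2, at resolution 0.5, with at least 2 Cxcl9 UMIs and at a limit of 25% above 1, 4 with seed 4, and 0 unthinned and at 2-fold. Of 216 recomputed values of 18 shares, 60 lay outside the main interval. Depth limits Pdcd1lg2, with 29 UMIs in non-responder macrophage-like cells, and every dendritic-like and T cell-like value.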
